A study of Mus musculus with 24 samples.

Results

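Nedd9, Ptpre and St3gal1 are 3 mouse genes at which many small open chromatin regions had no peak after CRISPR/Cas9 editing with a guide RNA (gRNA) against Chd4. They were chosen by the number of regions lost in that comparison, among 21900 protein-coding RefSeq genes, so their values in the Chd4 comparison are a description and carry no test. Each peak was given to the protein-coding gene whose span was nearest, and the peaks of a gene were merged within each assay where they overlapped or touched. This left 114 of 79937 ATAC regions at the 3 genes, 182 of 198726 PU.1 regions and 47 of 61422 H3K4me1 regions. All libraries came from lineage-negative bone marrow progenitors of C57BL/6 mice, obtained with a kit that removes cells carrying mature lineage markers. ATAC-seq, in which a transposase cuts and tags open DNA, was run in 2 sets on cells with Cas9. Set A compared Chd4 gRNA (gRNA_Chd4_1) with an empty gRNA vector in Utx WT cells, 2 libraries each. Set B compared Smarca4 gRNA (gRNA_Smarca4_2) with the empty vector in Utx KO and in Utx WT cells, 2 libraries for each of its 4 groups. ChIP-seq, with no gRNA named in the labels, mapped PU.1 in 3 Utx KO and 3 Utx WT libraries and H3K4me1 in 2 Utx KO and 2 Utx WT libraries. The labels of the set A samples give 7 days in semisolid medium, 5 days in liquid culture and ATAC-seq 6 days after transduction. Each target was edited with 1 guide in a transduced culture, the lists measure neither editing nor expression, and the labels do not say whether replicates were separate animals or cultures. The p-values below therefore measure only the spread between these samples.

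Chd4 is the ATPase of the NuRD complex, which joins nucleosome remodelling to histone deacetylation, and Smarca4 encodes Brg1, the ATPase of the BAF remodelling complex. Utx, encoded by Kdm6a, is a demethylase of histone H3 and a subunit of the enzyme complexes that write H3K4me1, the mark of enhancers. PU.1 is an ETS family transcription factor that opens and occupies myeloid and lymphoid enhancers. Nedd9 is a scaffold of the Cas family that carries signals from integrins to focal adhesion and Src family kinases. Ptpre is the receptor-type protein tyrosine phosphatase epsilon, which also has a cytosolic form and acts on Src family kinases. St3gal1 is a sialyltransferase that caps O-linked glycans of cell surface proteins such as leukosialin.

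Nedd9 spans 177 kb (chr13:41309916-41487362, mm10), Ptpre 148 kb (chr7:135537824-135686294) and St3gal1 74.1 kb (chr15:67102875-67176946). The RefSeq promoter table of GRCm38.p6 lists 1 start for Nedd9 and 3 for Ptpre, and has no entry for St3gal1. The sequences below show the 250 bases before those starts that lay in regions kept after Chd4 gRNA. No lost region of Nedd9 or Ptpre held a listed start. The Nedd9 promoter (chr13:41359002-41359251, minus strand) starts inside the gene span. The first and second Ptpre promoters (chr7:135537574-135537823 and chr7:135593231-135593480, both plus strand) lie at the lower gene end and inside the gene. Capitals mark matches on either strand to the letters searched. The core shared by ETS factors was searched as GGAA. The letters GAGGAAG stood for PU.1 itself. For GATA factors the search used AGATAA. For AP-1, the Jun and Fos dimer, it used TGAGTCA. For RUNX factors it used TGTGGTT.
Nedd9 promoter: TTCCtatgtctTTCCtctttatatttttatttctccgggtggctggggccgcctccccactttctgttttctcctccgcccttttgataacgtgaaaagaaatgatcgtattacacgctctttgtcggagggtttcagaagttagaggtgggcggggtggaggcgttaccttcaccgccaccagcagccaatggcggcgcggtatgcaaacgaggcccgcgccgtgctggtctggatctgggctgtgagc
Ptpre promoter, first start: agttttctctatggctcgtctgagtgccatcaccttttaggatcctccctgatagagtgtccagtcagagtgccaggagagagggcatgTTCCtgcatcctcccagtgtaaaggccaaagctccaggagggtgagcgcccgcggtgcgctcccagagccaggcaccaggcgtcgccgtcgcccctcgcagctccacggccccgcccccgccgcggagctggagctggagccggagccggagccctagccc
Ptpre promoter, second start: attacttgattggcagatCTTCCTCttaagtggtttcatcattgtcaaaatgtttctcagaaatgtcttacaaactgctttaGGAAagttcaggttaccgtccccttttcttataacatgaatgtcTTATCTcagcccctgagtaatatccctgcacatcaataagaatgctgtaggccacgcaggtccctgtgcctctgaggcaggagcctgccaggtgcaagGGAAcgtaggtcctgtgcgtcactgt
The ETS core occurred 2 times before the Nedd9 start, once before the first Ptpre start and 3 times before the second. The second Ptpre promoter also held 1 match to the PU.1 letters, which overlaps one of its ETS cores, and 1 match to the GATA letters. The third Ptpre start lay in no ATAC region, so its sequence is not shown. The 250 bases before it (chr7:135605578-135605827, plus strand) held the ETS core 7 times and 1 match to the AP-1 letters. Those bases partly overlap chr7:135605008-135605765, a Ptpre region kept after Chd4 gRNA that ends just before the start. Over 32851 mouse promoters of the same length, 93.4% held the ETS core, 10.6% the PU.1 letters, 9.99% the GATA letters, 4.46% the AP-1 letters and 4.40% the RUNX letters. A match is a description of these letters and not a measured site.

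The set A lists held 34429 and 24833 peaks after Chd4 gRNA and 48687 and 41480 peaks with the empty vector, so the gRNA lists were the shorter ones throughout. Set B lists held 29930 to 50927 peaks. The ATAC lists give intervals only, so their depth is unknown. PU.1 lists held 137850 to 171535 islands with 20.4 to 27.8 M reads in islands, and H3K4me1 lists 43706 to 54654 islands with 6.93 to 14.2 M. Of 8 progenitor marker genes (Kit, Cd34, Runx1, Lmo2, Meis1, Ptprc, Spi1 and Myb), 8 had a region in both Chd4 gRNA libraries and 8 in both empty vector libraries, with 97 and 58 regions after Chd4 gRNA against 145 and 110 with the empty vector. Of 6 genes of other tissues (Alb, Myod1, Neurod1, Cdh5, Col1a1 and Krt5) 1 had a region in both Chd4 gRNA libraries and 4 in both empty vector libraries. They held 3 and 2 regions after Chd4 gRNA, against 7 and 5, with none at Myod1 and Krt5. These 2 lists had fewer regions after Chd4 gRNA, as the lists as a whole did, and their part in the results was not tested.

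After Chd4 gRNA the 3 genes had a peak in fewer of their regions in each library than with the empty vector. Nedd9 had peaks in 14 and 10 of its 32 regions after Chd4 gRNA, against 28 and 26 with the empty vector. Ptpre had peaks in 18 and 14 of 38 regions after Chd4 gRNA, against 33 and 30. St3gal1 had peaks in 18 and 17 of 44 regions after Chd4 gRNA, against 35 and 29. The Chd4 gRNA libraries lay below both empty vector libraries at each of the 3 genes, as they did at 30.3% of all genes with a region in set A. In bulk lists a region closed in all cells and one closed in a part of the cells cannot be told apart. A region is called lost where both empty vector libraries and neither gRNA library had a peak, gained in the reverse case and kept where all 4 had one. Nedd9 lost 13 of the 25 regions held by both empty vector libraries and kept 10. Ptpre lost 11 of 28 and kept 14, and St3gal1 lost 10 of 29 and kept 16. Over all genes 18.9% of such regions were lost (7027 of 37238). No region was gained at the 3 genes, where 10, 14 and 16 regions could have been, and 0.519% of such regions were gained over all genes.

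**Figure D1:**
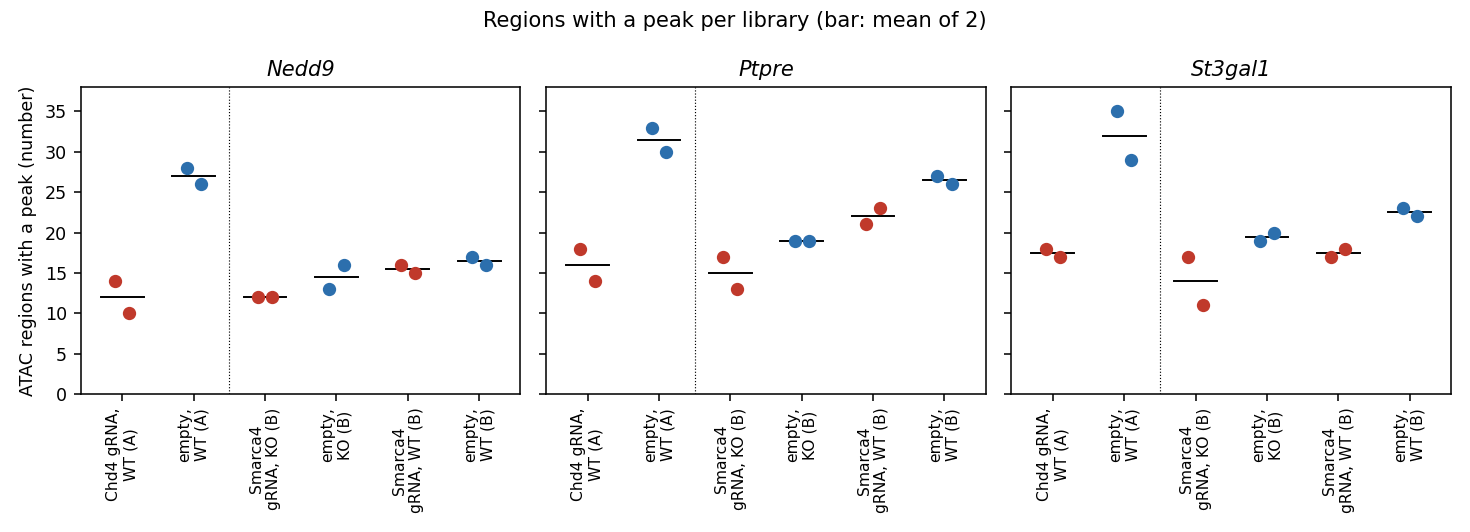
ATAC regions with a peak (y axis, number) at each gene in each library, with the mean of 2 libraries as a bar; Chd4 or Smarca4 gRNA in red, empty vector in blue, and a dotted line between set A and set B. In set A the 2 Chd4 gRNA libraries lie below both empty vector libraries at each gene, while in set B the gRNA and empty vector means of the same genotype differ by 5.5 regions at most.

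Fewer regions were lost in trimmed lists. When the 4 lists of set A were trimmed to the shortest by peak width, Nedd9 lost 0 of 10 regions, Ptpre 2 of 15 and St3gal1 1 of 14. Over all genes 1172 regions were then lost, 893 were gained and the lost share was 5.60%. In the upper 50% of each list by width Nedd9 lost 2 of 9 regions, Ptpre 3 of 15 and St3gal1 6 of 12. Over all genes 3280 of 18726 such regions (17.5%) were lost there and 61 were gained. Trimming by width removes the narrow peaks, and most lost regions were narrow, so list length and peak width changed together and cannot be told apart. The depth behind the shorter lists is unknown, and its part in the losses was not tested. With only peaks within 50 kb of the gene, St3gal1 lost 4 regions. Without the second empty vector library it lost 16, in a setting where the count can only stay or rise.

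Just beside the 3 genes in number of lost regions stood Sox6, a transcription factor gene of erythroid cells, with 11 lost of 12 and 0 kept. Pik3r1, a regulatory subunit of phosphoinositide 3-kinase, lost 10 of 26, and Pde4d, a cyclic AMP phosphodiesterase, lost 9 of 30. The next 9 genes lost 8 each, among them Atxn1 with 8 of 23 and Bcl11a, a zinc-finger repressor of lymphoid and erythroid cells, with 8 of 17. Sox6 thus lost as many regions as Ptpre, and Pik3r1 as many as St3gal1. Among the 61 genes with at least 20 regions in both empty vector libraries the median share lost was 24.0%. By that share Nedd9 ranked 1 with 52.0%, Ptpre 2 with 39.3% and St3gal1 7 with 34.5%. These ranks come from the contrast that chose the genes and only describe them. Sox6 (91.7% lost) and Bcl11a (47.1%) had too few such regions to be ranked.

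**Figure D2:**
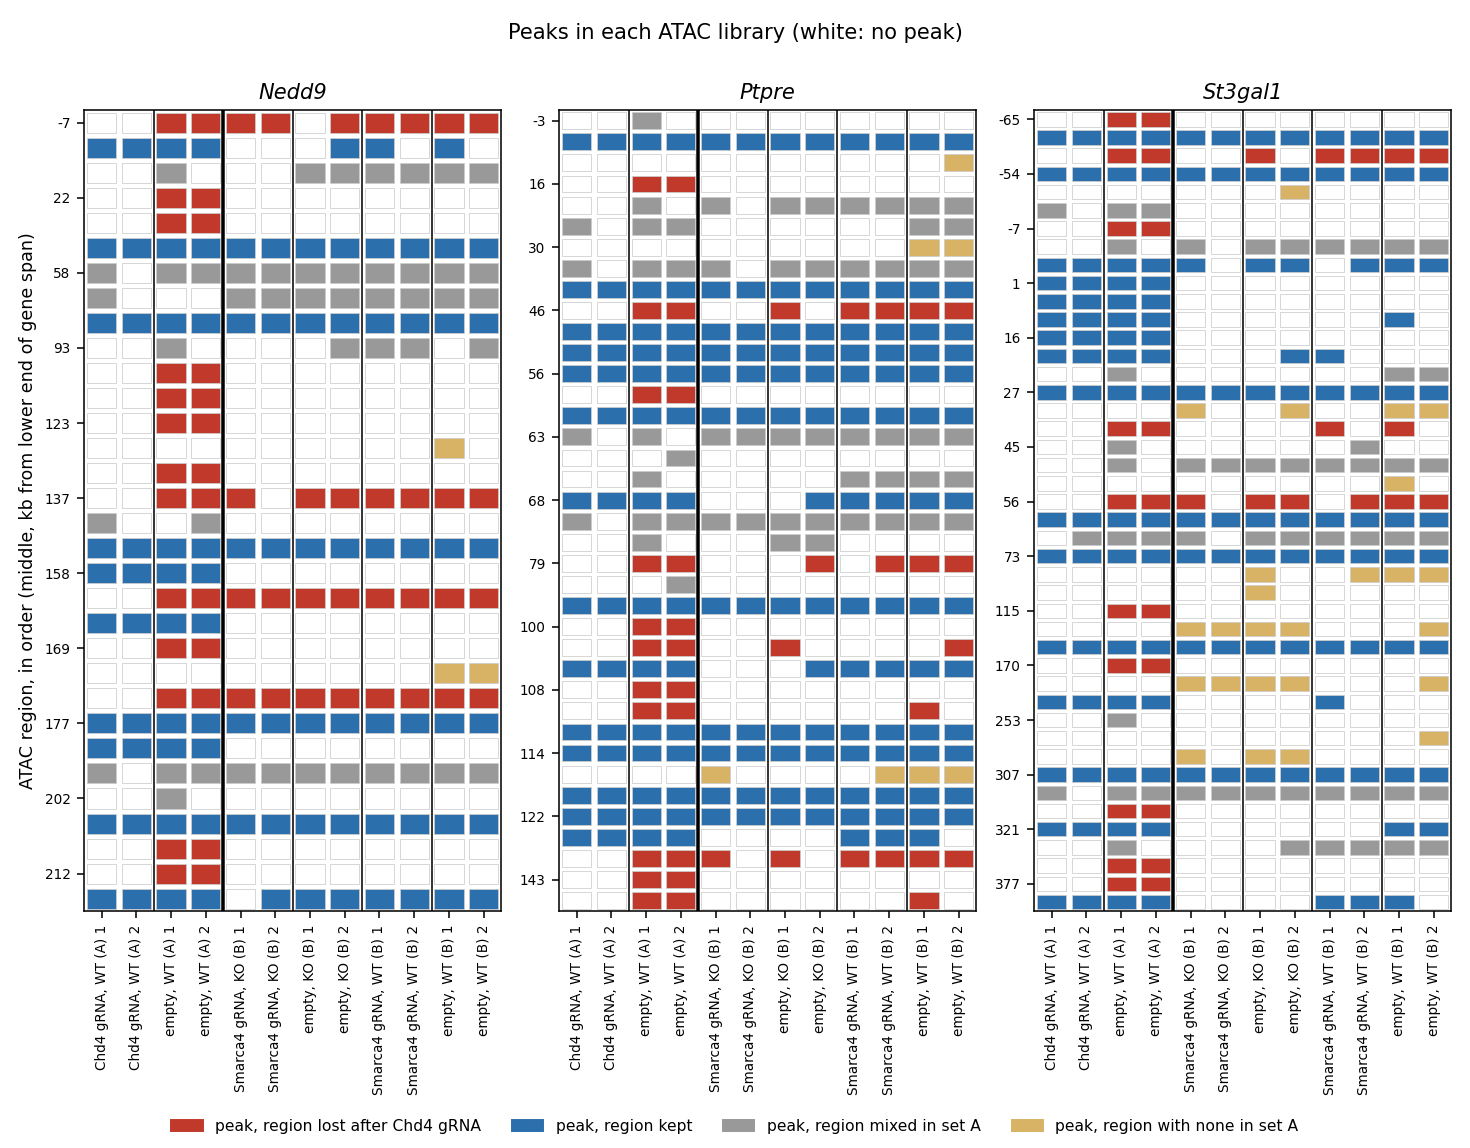
Peaks at each ATAC region of Nedd9, Ptpre and St3gal1 (rows, in genomic order, with every 3 rows labelled by the distance of the region's middle from the lower end of the gene span in kb) in each of the 12 ATAC libraries (columns). A filled cell is a peak, coloured by what the region did in set A, and the red rows, lost after Chd4 gRNA, are mostly empty in the 8 set B columns.

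The lost regions were narrow with the empty vector. At the 3 genes their median width in the first empty vector library was 329.5 bp, against 769.5 bp for the kept regions, and over all genes the medians were 331 and 775 bp. Regions held by both empty vector libraries were grouped by their width in the first, and regions held by only one of these libraries were not counted. All 12 such regions of 200 to 300 bp and all 14 of 300 to 400 bp were lost. Over all genes 65.5% and 40.5% of such regions were lost. Of 26 regions of 400 to 600 bp 6 were lost, against 15.8% over all genes, and of 30 wider regions 2 were lost, against 2.76%. At each width a larger share was lost than over all genes, in the same contrast that chose the genes. The widest lost region was chr7:135615904-135616815 in Ptpre, with no peak after Chd4 gRNA and peaks of 869 and 619 bp with the empty vector. At Nedd9, chr13:41484883-41485844 had no peak after Chd4 gRNA and peaks of 246 and 606 bp with the empty vector. At St3gal1 the widest lost region was chr15:67420133-67420690, with no peak after Chd4 gRNA and peaks of 540 and 496 bp with the empty vector. Peaks of lost regions thus began at the smallest width in the lists, 200 bp. In the first empty vector library only the Ptpre peak of 869 bp lay above the median of kept regions. In the second the widest lost peak, 619 bp, lay below the kept median of 653 bp.

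**Figure D3:**
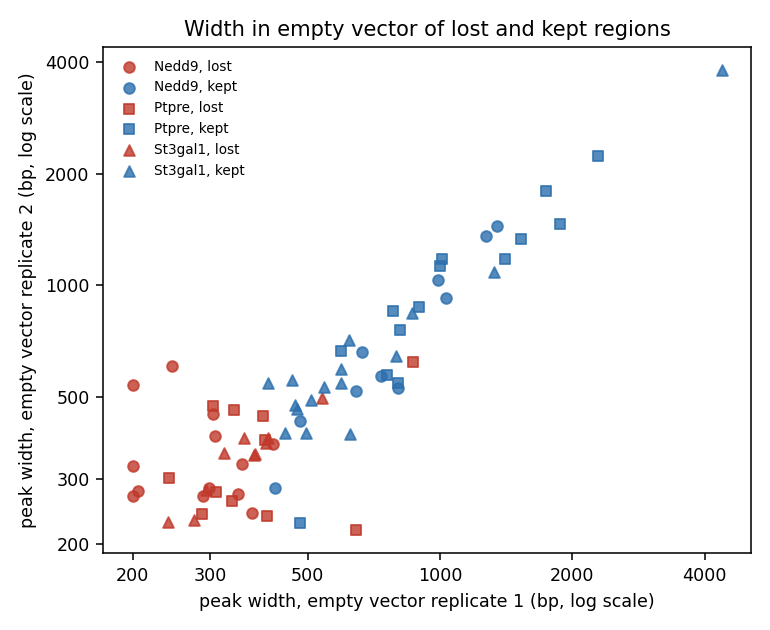
Peak width in the second against the first empty vector library of set A (bp, both axes on a log scale) for the 34 lost (red) and 40 kept (blue) regions of Nedd9, Ptpre and St3gal1. Lost regions crowd the lower left, where no kept region lies below 406 bp in the first library.

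Kept regions also tended to be narrower after Chd4 gRNA. Nedd9 kept regions had median widths of 509.5 and 385.5 bp after Chd4 gRNA, against 767.5 and 615.5 bp with the empty vector. Ptpre kept regions had medians of 731.5 and 594.5 bp after Chd4 gRNA, against 947 and 998.5 bp, and St3gal1 kept regions 409 and 404 bp, against 570 and 545 bp. Of the 40 kept regions 30 (75.0%) were narrower in both gRNA libraries than in both empty vector libraries and 0 were wider, where 70.6% of all kept regions were narrower. The share at the 3 genes was therefore near that of all genes. The widest kept region of St3gal1, chr15:67173817-67178760 at the upper end of the gene, measured 3608 and 2027 bp after Chd4 gRNA, against 4372 and 3798 bp. The widest of Ptpre, chr7:135596903-135599552, measured 2139 and 1522 bp, against 2288 and 2231 bp with the empty vector. The widest of Nedd9, chr13:41380906-41382465, measured 1292 and 1148 bp, against 1349 and 1443 bp with the empty vector. In each of these the gRNA values lay below both empty vector values.

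None of the 34 lost regions reached within 1 kb of a gene end, where 9.16% of all lost regions did. Among kept regions 4 of 40 did (10%), where 39.3% of all kept regions did. At Ptpre all 11 lost regions lay inside the gene, between chr7:135553550 and chr7:135684446. At Nedd9 10 of 13 lay inside the gene, and the set spread from chr13:41302709 to chr13:41521620. At St3gal1 2 of 10 lay inside the gene, and the others reached as far as 302 kb from it, to chr15:67479632. The nearest gene need not be the one a distant region acts on, and for St3gal1 most of the loss rests on that assignment.

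Of the other genes in the pathways of Nedd9, Ptpre and St3gal1, some lost single regions. Among 24 genes of the Cas family and adhesion signalling 23 had a region in both empty vector libraries. Of 126 such regions 22 (17.5%) were lost, and 0 regions were gained in the list. The adhesion kinase Ptk2b lost 4 of 20 regions, the Src family kinase Fyn 3 of 7, the adaptor paxillin, Pxn, 2 of 11 and the integrin beta chain Itgb1 2 of 4. Among 15 receptor-type tyrosine phosphatases 10 had such a region. Here 16 of 61 regions (26.2%) were lost and 0 gained. Ptprc, which encodes CD45, lost 5 of 16 regions, Ptprk 3 of 6, Ptprf 2 of 3 and Ptprj 2 of 13. Among 24 sialyltransferases and core 1 O-glycan enzymes 19 had such a region. Of 96 regions 10 (10.4%) were lost, and 1 region was gained in the list. The polysialyltransferase St8sia4 lost 2 of 12 regions, and St3gal2, St3gal3 and St3gal4 lost 1 each of 6, 3 and 6. The first list stood near the 18.9% of all regions, the second above it and the third below it.

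Most regions lost after Chd4 gRNA had no peak anywhere in set B. Of the 34 lost regions 21 (61.8%) had a peak in 0 of the 8 set B libraries, where 57.2% of all lost regions had none. They were 9 of 13 at Nedd9, 5 of 11 at Ptpre and 7 of 10 at St3gal1. Of the 40 kept regions 6 (15%) had none, where 12.6% of all kept regions had none, and 23 (57.5%) had a peak in all 8, where 70.3% of all did. At Ptpre 0 of 14 kept regions were without a peak in set B, and 11 were held by all 8. Of the lost regions 2 had a peak in all 8 set B libraries, and both are in Nedd9, chr13:41469512-41469931 and chr13:41484883-41485844. At Nedd9, chr13:41302709-41303108 and chr13:41446600-41447417 were held by 7 of the 8. The 21 lost regions with no set B peak were thus held by both empty vector libraries of set A and by neither Utx WT empty vector library of set B, and set and library cannot be told apart there.

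**Figure D4:**
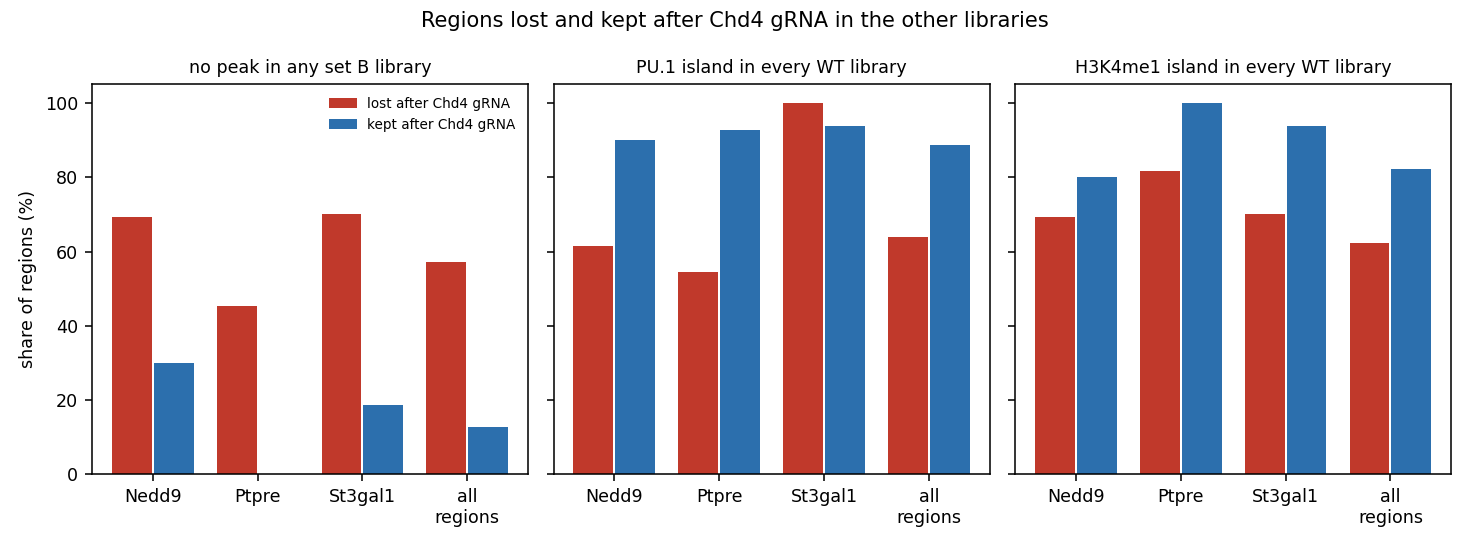
Share of regions (y axis, %) lost (red) or kept (blue) after Chd4 gRNA that had no peak in any set B library, a PU.1 island in every Utx WT library, or an H3K4me1 island in every Utx WT library, at each gene and over all 7027 lost and 21700 kept regions. Of lost regions 69.2% at Nedd9, 45.5% at Ptpre and 70.0% at St3gal1 had no peak in set B, against 57.2% over all lost regions. PU.1 was at all 10 lost St3gal1 regions, at 61.5% at Nedd9 and 54.5% at Ptpre, against 63.9% over all lost regions.

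The effect of Smarca4 gRNA was asked next, in libraries that had no part in choosing the genes. Each gene had fewer regions with a peak on average after Smarca4 gRNA, by 1 to 5.5 regions, and no difference passed a test. In Utx KO cells Nedd9 had 12 and 12 regions with a peak after Smarca4 gRNA, against 13 and 16 with the empty vector. Ptpre had 17 and 13, against 19 and 19, and St3gal1 17 and 11, against 19 and 20. The groups did not overlap at any of the 3 genes, as at 18.1% of all genes tested, and the mean differences were -2.5, -4 and -5.5 regions. In Utx WT cells Nedd9 had 16 and 15 regions after Smarca4 gRNA, against 17 and 16, groups that meet at 16. Ptpre had 21 and 23, against 27 and 26, and St3gal1 17 and 18, against 23 and 22. The mean differences in WT cells were -1, -4.5 and -5 regions, and the groups did not overlap at Ptpre and St3gal1, as at 17.2% of all genes tested. The two-sided exact permutation test gave p = 0.667 for Nedd9 in WT cells and p = 0.333 for each other difference, the smallest that 2 against 2 libraries allow, and each adjusted p over all genes was 1. Over all genes 47.3% had fewer regions with a peak after Smarca4 gRNA in KO cells and 44.5% in WT cells. With each library left out in turn, the KO differences ran from -4 to -1 at Nedd9, -6 to -2 at Ptpre and -8.5 to -2.5 at St3gal1. The WT differences ran from -1.5 to -0.5 at Nedd9, -5.5 to -3.5 at Ptpre and -5.5 to -4.5 at St3gal1. The Smarca4 gRNA lists were the shorter ones, with 35975 and 29930 peaks in KO cells, against 40477 and 41024 with the empty vector. In WT cells they held 42015 and 46191 peaks, against 50845 and 50927. With lists of equal length the Nedd9 differences turned to 1 region more in KO cells and 1.5 more in WT cells. Ptpre then differed by -1.5 in either genotype, and St3gal1 by -2 in KO and -1 in WT cells. The part of list length was not tested.

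Single regions lost after Smarca4 gRNA numbered 0 to 3 per gene. In Utx KO cells Nedd9 lost 1 of 13 regions held by both empty vector libraries, Ptpre 1 of 16 and St3gal1 0 of 16, where 11.2% were lost over all genes. In Utx WT cells Nedd9 lost 1 of 15 (6.67%), Ptpre 2 of 24 (8.33%) and St3gal1 3 of 19 (15.8%), where 8.27% were lost over all genes. None was gained at the 3 genes in either genotype, against 0.61% over all genes in KO cells and 1.47% in WT cells. Of the 34 regions lost after Chd4 gRNA, 9 had a peak in both Utx WT empty vector libraries of set B, and of these 0 were lost and 7 kept after Smarca4 gRNA. Of all such regions 8.15% were lost. The 2 guides were run in separate sets, so these calls stand side by side and the difference between the guides was not tested.

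Without Utx the 3 genes again had fewer regions with a peak on average, and no difference passed a test. In empty vector libraries Nedd9 had 13 and 16 regions in Utx KO cells, against 17 and 16 in Utx WT cells. Ptpre had 19 and 19 in KO cells, against 27 and 26 in WT cells, and St3gal1 19 and 20, against 23 and 22. Ptpre, with a mean difference of -7.5 regions, and St3gal1, with -3, did not overlap between genotypes, as at 27.9% of all genes tested, while Nedd9, with -2, did. By the two-sided exact permutation test p was 0.667 for Nedd9 and 0.333, the smallest possible, for Ptpre and St3gal1, with an adjusted p of 1 each. Over all genes 49.6% had fewer regions in KO cells. With each library left out in turn, the differences ran from -3.5 to -0.5 at Nedd9, -8 to -7 at Ptpre and -3.5 to -2.5 at St3gal1. The KO lists were the shorter ones, with 40477 and 41024 peaks, against 50845 and 50927 in WT cells. With lists of equal length Nedd9 had 1 region more and St3gal1 2 more in KO cells, and the Ptpre difference was -2.5. Region by region Nedd9 lost 1 of 15, Ptpre 4 of 24 and St3gal1 2 of 19, where 15.5% were lost over all genes. Nedd9 gained 0 of 13, Ptpre 1 of 16 and St3gal1 1 of 16, where 3.32% were gained over all genes. Of the 9 regions lost after Chd4 gRNA and held by both WT empty vector libraries of set B, 0 were lost and 4 kept in KO cells, and 19.0% of all such regions were lost.

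Some genes followed the 3 across the 8 set B libraries. The measure was Pearson r of the share of a gene's regions with a peak, less the share over all regions in the same library, over 2122 genes with at least 10 regions. Nedd9 was most like Snx24 (r = 0.94), Tusc1 (0.87) and Fgf10 (0.87). Ptpre was most like the histone demethylase gene Kdm4b (0.99), Arhgef10l (0.98) and Wdr20 (0.98). St3gal1 was most like Pparg (0.98), which encodes a nuclear receptor, Macf1 (0.95) and Pabpc2 (0.94). The 8 points share libraries and list lengths, so these values only describe the likeness.

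PU.1 islands covered most of the lost regions and nearly all of the kept ones. An island in each of the 3 Utx WT libraries overlapped 24 of 34 lost regions (70.6%), where 63.9% of all lost regions had one, and 37 of 40 kept regions (92.5%), where 88.8% did. H3K4me1 islands in both WT libraries overlapped 25 of 34 lost regions (73.5%), where 62.4% of all did, and 37 of 40 kept regions (92.5%), where 82.3% did. Both marks together covered 20 lost regions (58.8%), where 46.6% of all lost regions had both, and 35 kept regions (87.5%), where 75.8% did. The genes differed among themselves. PU.1 was at 10 of 10 lost St3gal1 regions, 8 of 13 at Nedd9 and 6 of 11 at Ptpre, while H3K4me1 was at 7, 9 and 9 of them. At Ptpre 4 lost regions had no PU.1 island in any WT library. Reads were also summed over the islands that overlapped each region, per 1000000 island reads of the library (island RPM, mean of the WT libraries), with 0 where no island did. Over the 3 genes the median was 5.25 PU.1 island RPM at lost and 15.2 at kept regions. For H3K4me1 the medians were 24.1 island RPM at lost and 69.8 at kept regions. The ChIP cells were not edited with Chd4 gRNA, and a wide island can cover several ATAC regions, so neighbouring regions are not separate measurements.

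Between Utx KO and Utx WT cells, PU.1 at St3gal1 was lower in every KO library by a small amount, and at Nedd9 and Ptpre the groups overlapped. The measure is island RPM, a gene's share of the island reads of a library. St3gal1 had 688, 666 and 634 island RPM in KO cells, against 745, 748 and 715 in WT cells. Nedd9 had 429, 443 and 425 in KO cells, against 370, 390 and 426 in WT cells. Ptpre had 465, 498 and 482 in KO cells, against 464, 475 and 499 in WT cells. St3gal1 averaged 663 ± 26.9 in KO cells and 736 ± 18.1 in WT cells (SD, n = 3 each), a log2 ratio of -0.15, where the median of all genes was 0.04. The two-sided exact permutation test gave p = 0.1 for St3gal1, the smallest that 3 against 3 libraries allow, with an adjusted p of 0.237, p = 0.2 for Nedd9 (adjusted 0.371) and p = 0.8 for Ptpre (adjusted 0.907). Of all genes 17.7% were lower in every KO library. The mean difference at St3gal1 was -73.3 island RPM, and -35.5 with only peaks within 50 kb of the gene. Of the 103 PU.1 regions at St3gal1 26 (25.2%) were lower in every KO library and 5 (4.85%) higher, where 14.5% and 15% of all regions were. At Nedd9 12 of 47 regions (25.5%) were higher in every KO library and 3 lower, and at Ptpre 5 of 32 were higher and 4 lower.

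By presence of islands PU.1 hardly differed at the 3 genes. St3gal1 had 84, 71 and 81 regions with a PU.1 island in KO cells, against 80, 83 and 76 in WT cells, a mean difference of -1. Nedd9 had 40, 37 and 41 in KO cells, against 36, 38 and 40, and Ptpre 30, 26 and 28, against 23, 27 and 27. These groups overlapped at each gene, and by the exact permutation test, two-sided, p was 0.9 for St3gal1, 0.6 for Nedd9 and 0.4 for Ptpre (adjusted p = 1 each). St3gal1 lost 3 of 70 regions held by every WT library, where 2.07% were lost over all genes, and all 3 lay outside the gene. The widest of them, chr15:67378801-67379799, had no island in KO cells and 53, 44 and 55 reads in WT cells. Nedd9 gained 1 of 34, where 4.82% were gained over all genes, at chr13:41452601-41453199, with 43, 32 and 57 reads in KO cells and no island in WT cells. Ptpre lost and gained 0. These 4 regions held 27 to 57 reads in each library that had an island there.

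Without Utx the H3K4me1 share was higher at Nedd9 and lower at St3gal1 in both KO libraries, and no difference passed a test. Nedd9 had 727 and 682 island RPM in KO cells, against 320 and 388 in WT cells. St3gal1 had 599 and 669 in KO cells, against 816 and 767 in WT cells. Ptpre had 1149 and 947 in KO cells, against 952 and 825 in WT cells. The KO libraries were all above WT at Nedd9 and all below WT at St3gal1, and they overlapped at Ptpre. Nedd9 averaged 705 ± 31.8 in KO cells and 354 ± 47.9 in WT cells (SD, n = 2 each), 1.99-fold higher and a log2 ratio of 0.99. The median log2 ratio of all genes was 0.10, and 93.8% of genes lay below Nedd9. St3gal1 averaged 634 ± 49.8 in KO cells and 791 ± 35.2 in WT cells, a log2 ratio of -0.32, below which lay 24.6% of genes. The two-sided exact permutation test gave p = 0.333 for Nedd9 and St3gal1, the smallest that 2 against 2 allow (adjusted 0.631), and 0.667 for Ptpre (adjusted 0.906). Of all genes 29.9% were higher in both KO libraries and 22.9% lower.

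**Figure D5:**
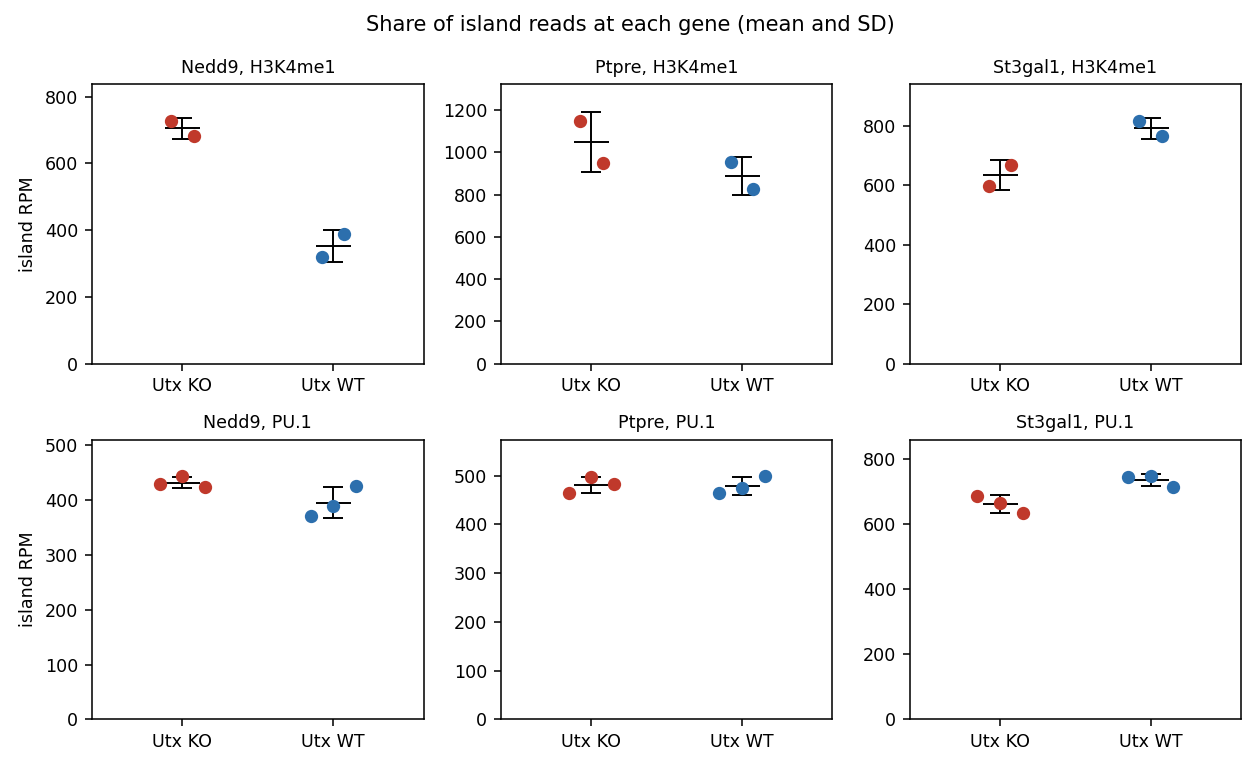
Share of a library's island reads at Nedd9, Ptpre and St3gal1 (y axis, island RPM, from 0) for H3K4me1 (top, 2 libraries each) and PU.1 (bottom, 3 libraries each), Utx KO in red and Utx WT in blue, with the mean and SD as bars. H3K4me1 at Nedd9 averaged 705 in KO and 354 in WT cells, and at St3gal1 634 in KO and 791 in WT cells.

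The higher H3K4me1 share at Nedd9 was spread over the locus. Of its 13 H3K4me1 regions 8 were higher in both KO libraries and 0 lower, where 23% of all regions were higher and 22.5% lower. The widest, chr13:41457201-41495199, covers the upper end of the gene and held 257 and 214 island RPM in KO cells, against 119 and 125 in WT cells. It also holds the Nedd9 regions lost after Chd4 gRNA that had a peak in all 8 set B libraries. At St3gal1 10 of 31 regions were lower in both KO libraries and 6 higher. The widest, chr15:67112201-67166599 inside the gene, held 165 and 196 island RPM in KO cells, against 334 and 288 in WT cells. In KO cells it was split into 6 and 5 islands that covered 28.0 and 39.4 kb, against 3 and 1 islands that covered 51.4 and 54.4 kb in WT cells. At Ptpre the widest, chr7:135533001-135613599, held 799 and 626 in KO cells, against 662 and 564 in WT cells, and islands covered 79.2 and 78.6 kb of it in KO cells, against 78.4 and 77.4 kb in WT cells.

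By presence, St3gal1 had 15 and 19 regions with an H3K4me1 island in KO cells, against 24 and 29 in WT cells, a mean difference of -9.5 (exact permutation test, two-sided, p = 0.333, adjusted p = 1). With only peaks within 50 kb of the gene the difference was -2.5. It lost 6 of 23 regions held by both WT libraries (26.1%), where 17.5% were lost over all genes. Of those, chr15:67458001-67464799 had no island in KO cells and 127 and 270 reads in WT cells, and it contains a St3gal1 region that was lost after Chd4 gRNA. Nedd9 had 9 and 11 regions in KO cells, against 7 and 10 in WT cells, and lost 0 of 7. Ptpre had its 3 broad regions in each library. No region was gained at the 3 genes, where 4.45% were gained over all genes.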

How the data were processed

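ATAC-seq, PU.1 ChIP-seq and H3K4me1 ChIP-seq lists of 22 of 24 samples were used; 2 input samples entered no comparison. The submitters' processing notes name MACS2 and Bowtie for every list, SICER and Bowtie2 besides for all but the set A lists, and build mm10. Roles and versions are not given in the sources used here. The authors deposited 1 list per library. The ChIP lists hold islands on a 200 bp grid with a whole number each, taken as the read count of the island as deposited by the authors, a role inferred from the format. ATAC lists hold intervals only, so no count test was possible and presence of a peak, and its width, were used.

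Each peak went to its nearest protein-coding gene span, of 21900 (RefSeq, GRCm38.p6; 672 of 1576830 peaks lay on sequences without a gene) and peaks were merged within assay and gene. Island RPM are reads per 1000000 island reads of the library. Number of regions with a peak, and island RPM, were compared per gene with two-sided exact permutation tests over libraries, with Benjamini-Hochberg adjustment over all genes tested. Alternatives were lists of equal length, the upper 50% of each list by width or island reads, 50% cover, merging within 200 bp, merging before assignment, a limit of 50 kb, regions of the Chd4 set alone, each library left out, and same-numbered pairs. Named were the 3 genes, the 5 genes next in lost regions, up to 4 genes per pathway list by lost regions, and 3 like genes each. The genes, lists, markers and motifs were chosen with earlier results of these data known. A further marker list is not reported here. The code was tested on simulated data. Scripts ran in Python 3.11.15 with pandas 2.3.3 and numpy 2.4.6. Versions of scipy and matplotlib were 1.17.1 and 3.10.9.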

Additional observations from a re-analysis of the deposited data

How the results depend on the processing

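Under the alternative settings 10 values changed sign, and 10 counts or shares moved beyond 1.5 times or beyond their 95% binomial interval. The other 291 stayed within those limits or, for tested differences, did not turn and stayed on their side of 0.05, but 58 of these 233 differences changed in size by over 1.5 times. With a limit of 50 kb, for example, St3gal1 differed by -35.5 PU.1 island RPM and -2.5 H3K4me1 regions, and with each library left out Ptpre H3K4me1 ranged from 58.8 to 260 island RPM and Nedd9 PU.1 from 24.8 to 52.4. With lists of equal length the regions lost after Chd4 gRNA were 0 at Nedd9, 2 at Ptpre and 1 at St3gal1, and PU.1 was at 100% of the lost regions left. In the upper 50% of each list the losses were 2, 3 and 6, and H3K4me1 was at 100% of the kept regions. With a limit of 50 kb St3gal1 lost 4. The Nedd9 differences in regions with a peak turned with lists of equal length, to 1 for Smarca4 gRNA in Utx KO cells, 1.5 for Smarca4 gRNA in Utx WT cells and 1 for Utx KO against WT, and in the upper 50% to 1 for Smarca4 gRNA in WT cells and 0.5 for Utx KO against WT. St3gal1 turned to 2 for Utx KO against WT with lists of equal length. The cause was not tested. With each library left out, lost regions ranged from 13 to 16 at Nedd9, 11 to 15 at Ptpre and 10 to 16 at St3gal1. Leaving a library out loosens the rule for a lost region, so these counts could stay or rise but not fall. PU.1 at Ptpre ranged from -5.07 to 12.6 island RPM, turning without the first WT or the second KO library, and PU.1 regions at St3gal1 from -3.67 to 2.83, turning without the second WT or the second KO library. Deviations of same-numbered libraries from their group means had correlations of -0.15 to 0.12 over genes. In the ATAC labels the number follows the genotype in gRNA and empty vector libraries alike. The labels do not say whether a shared number marks a shared animal or culture, so pairing is possible and was used only as an alternative. With same-numbered pairs as a replicate block, lost regions averaged 16 at Nedd9, 15.5 at Ptpre and 14.5 at St3gal1, against 13, 11 and 10 in the main setting. Here a region counts as lost in a pair where its empty vector library had a peak and its gRNA library had none. This looser count cannot fall below the main one. Each average stayed within 1.5 times its main count, and no tested difference turned or crossed 0.05. ATAC depth is unknown, so a closed region and one missed at low depth cannot be told apart. The 2 or 3 libraries per group cannot reach 0.05 in these tests.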
